A study of Homo sapiens with 15 samples.

Results

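The SOX, NFI and ID genes described here are 10 transcription regulators named for their place in glial development: SOX8, SOX9 and SOX10, NFIA, NFIB, NFIC and NFIX, and ID1, ID2 and ID3. They were matched by symbol, each symbol giving 1 Ensembl identifier, among the 19684 genes of the deposited tables. Their RNA was followed in 15 libraries from BC1-GFP, a single human induced pluripotent stem cell (hiPSC) line that carries a GFP reporter, with 3 libraries in each of 5 groups. The groups were the undifferentiated hiPSCs, the neural retina of retinal organoids (ROs, retina-like tissue grown from the hiPSCs) at day 70 (D70-RO) and day 150 (D150-RO), and Müller glial cells expanded from D150-ROs (iMGCs) at passage 1 (P1) and passage 5 (P5). The RO samples were pools of several ROs, and the iMGCs were grown as an adherent serum-fed culture on Matrigel. The RO medium also held serum, and the paper states that its B27 supplement was replaced by N2 between the day 70 and day 150 stages. RO age and supplement therefore cannot be told apart. The labels and methods give 3 independent experiments per group, whereas the series' design text gives fewer for the hiPSCs and ROs, so p-values measure the spread between these libraries, part of which may be technical. The design text also names a pair of sequencing companies and a correction between batches. No source used here says which libraries made up a batch, so batch and group cannot be told apart, nor whether the deposited counts and FPKM already carry the correction.

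SOX8, SOX9 and SOX10 form the SOXE family of high-mobility-group factors. SOX9 is made by retinal progenitors and kept by Müller glia, the radial glia of the retina, SOX8 accompanies it, and SOX10 is known from neural crest, Schwann cells and oligodendrocytes. The nuclear factor I (NFI) proteins bind DNA as dimers and are known to act at the switch of late retinal progenitors from making neurons to making Müller glia. ID proteins lack a DNA-binding region and hold E proteins away from proneural basic helix-loop-helix (bHLH) partners, and ID1 to ID3 are classic targets of BMP signalling through SMAD proteins.

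The depth ran from 11349600 to 20398755 estimated reads per library (median 17194154). Levels are given as FPKM, the authors' fragments scaled to transcript length and to the mapped reads of the library, and differences as log2 fold changes from edgeR's quasi-likelihood test on the estimated counts, with TMM scaling (which aligns the bulk of genes between libraries), standard errors (SE) and Benjamini-Hochberg adjusted p-values over all genes tested. A gene was tested where at least 3 of the 6 libraries compared held 1 FPKM or more, and called where the adjusted p was under 0.05 and the fold at least 2. In these bulk samples fewer cells of a type and less RNA per cell cannot be told apart.

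The markers of the labelled cells were read beside the 10 genes. The D150-ROs held photoreceptor transcripts (CRX, RCVRN, NRL and ARR3 summed to 674 to 680 FPKM) together with the Müller marker RLBP1, the retinaldehyde carrier CRALBP, at 29.64 to 36.91 FPKM. In the iMGCs the Müller markers were split. RLBP1 was at 0 in all 3 P1 libraries and at 0.09, 0 and 0 FPKM in P5, while DKK3 held 241.34 to 394.91 FPKM. The water channel AQP4 was at 0 in all 6, but it held only 0.15 to 0.24 FPKM in D150-ROs. SLC1A3 averaged 0.373 FPKM in P1 and 1.19 FPKM in P5, against 28.0 FPKM in D150-ROs. Glutamine synthetase (GLUL) was at 12.25 to 15.22 FPKM, against 97.64 to 102.32 FPKM in D150-ROs, and fell by 2.25 on the log2 scale to P1 and by 2.06 to P5. Neither DKK3 nor GLUL was particular to D150-ROs and iMGCs. DKK3 held 374.49 to 397.64 FPKM in D70-ROs, and GLUL averaged 77.1 FPKM in hiPSCs. Of the 5 Müller markers read, 2 averaged at least 1 FPKM in P1 and 3 in P5, against 4 of 5 in D150-ROs. The 7 mesenchymal markers (collagens I and III, DCN, LUM, PDGFRB and THY1) summed to 2300 to 2400 FPKM in P1 and 2580 to 2840 FPKM in P5, against 23.4 to 28.5 FPKM in D150-ROs. Most of the iMGC sum was COL1A1, at 1946.06 to 2052.94 FPKM in P1 and 2102.26 to 2351.7 FPKM in P5, while DCN averaged 2.6 and 0.81 FPKM. In hiPSCs the same markers summed to 319 to 379 FPKM, with THY1 at a mean of 275 FPKM. Photoreceptor markers summed to at most 0.56 FPKM in any iMGC library. Every difference between iMGCs and D150-ROs below stands beside this change in cell content, whose part in it was not tested.

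SOX9 (chromosome 17, 72121020 to 72126420, plus strand) was the main SOXE transcript of the neural retina. It stood at 5.02, 4.26 and 5.53 FPKM in the 3 hiPSC libraries, at 34.08, 40.35 and 32.14 FPKM in D70-ROs and at 38.94, 46.54 and 42.23 FPKM in D150-ROs. In iMGCs it read 5.48, 4.98 and 5.17 FPKM at P1 and 3.47, 3.78 and 3.53 FPKM at P5. Both organoid stages lay far above the hiPSCs and overlapped each other, P1 overlapped the hiPSCs, and all P5 libraries lay under every other library. SOX9 rose from hiPSC to D70-RO by 2.71 on the log2 scale (6.56-fold, SE 0.15, adjusted p = 3.73e-08). Between D70 and D150 the estimate was 0.04 (SE 0.12, adjusted p = 0.798), and it lay at -0.07 with upper-quartile scaling, so no direction can be given. From D150-RO to P1 iMGC it fell by 2.39 (SE 0.07, adjusted p = 4.32e-14), and to P5 by 2.87 (SE 0.08, adjusted p = 4.36e-15).

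SOX8 (chromosome 16, 981808 to 986979, plus strand) had a later and narrower profile. Its levels were 2.92, 3.90 and 3.55 FPKM in hiPSCs, 6.12, 7.60 and 4.96 FPKM in D70-ROs and 18.43, 18.39 and 16.36 FPKM in D150-ROs. The passaged cells held 0.06, 0.08 and 0.02 FPKM at P1 and 0.02, 0.06 and 0 FPKM at P5, from 8 and 4 counts per group in all. The hiPSC and RO groups climbed without overlap, and SOX8 was close to absent from both passages, which overlapped each other. The step from D70 to D150 was called (log2 fold change 1.29, SE 0.16, adjusted p = 1.07e-04), whereas the step from hiPSC to D70 was 0.71 (SE 0.21, adjusted p = 0.00909) and stayed under the 2-fold limit. SOX8 fell by 7.71 from D150-RO to P1 (SE 0.2, adjusted p = 5.23e-15) and by 8.60 to P5 (SE 0.24, adjusted p = 4.80e-15). It passed the filter there only through the D150-ROs, and a fold resting on 8 or 4 counts is imprecise in size.

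SOX10 (chromosome 22, 37970686 to 37987422, minus strand) was a transcript of the hiPSCs in these libraries. They held 2.87, 3.19 and 2.44 FPKM, against 0.15, 0.20 and 0.10 FPKM in D70-ROs and 0.14, 0.06 and 0.02 FPKM in D150-ROs. P1 iMGCs read 0, 0 and 0.05 FPKM, and P5 iMGCs 0 in all 3, a count of 0 that allows up to 3 counts. No library outside the hiPSCs overlapped them, and the remaining 4 groups were too low to order. SOX10 fell by 5.03 from hiPSC to D70-RO (SE 0.3, adjusted p = 5.64e-08) and by 5.47 from hiPSC to D150-RO (SE 0.34, adjusted p = 1.09e-08). In both comparisons it passed the filter only through the hiPSCs. The gene lies wholly within the span of POLR2F, an RNA polymerase subunit gene on the opposite strand, and whether strand was used in the counting is not given in the sources used here. POLR2F averaged 69.9 FPKM in hiPSCs, 38.9 in D70-ROs, 22.2 in D150-ROs, 26.0 in P1 and 24.9 in P5. POLR2F was thus highest in the hiPSCs, as SOX10 was, and whether its reads entered the SOX10 counts was not tested. Among the genes of SOX10-expressing lineages, the receptors ERBB3 and EDNRB had high hiPSC levels too, at 18.72 to 22.87 and 29.85 to 34.49 FPKM, and both fell to D70-RO (by 7.15 and 5.10). Of the 10 genes of that list 5 were tested in this comparison, 1 higher and 3 lower (list median -3.68 against 0.02 over all genes).

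As a family the SOXE sum changed composition with stage. In hiPSCs it averaged 11.2 ± 0.371 FPKM (SD, n = 3), with 41.9 ± 5.64 in D70-ROs, 60.4 ± 4.04 in D150-ROs, 5.28 ± 0.242 in P1 and 3.62 ± 0.192 in P5. SOX9 made up 44.0% of it in hiPSCs, 84.9% in D70-ROs, 70.5% in D150-ROs and 98.7% and 99.3% in P1 and P5. SOX8 supplied 29.4% in D150-ROs against 14.8% in D70-ROs, and the ranges of the libraries (27.9% to 32.0% and 13.3% to 15.8%) did not overlap. The iMGCs thus carried SOX9 with almost no other SOXE transcript.

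**Figure D1:**
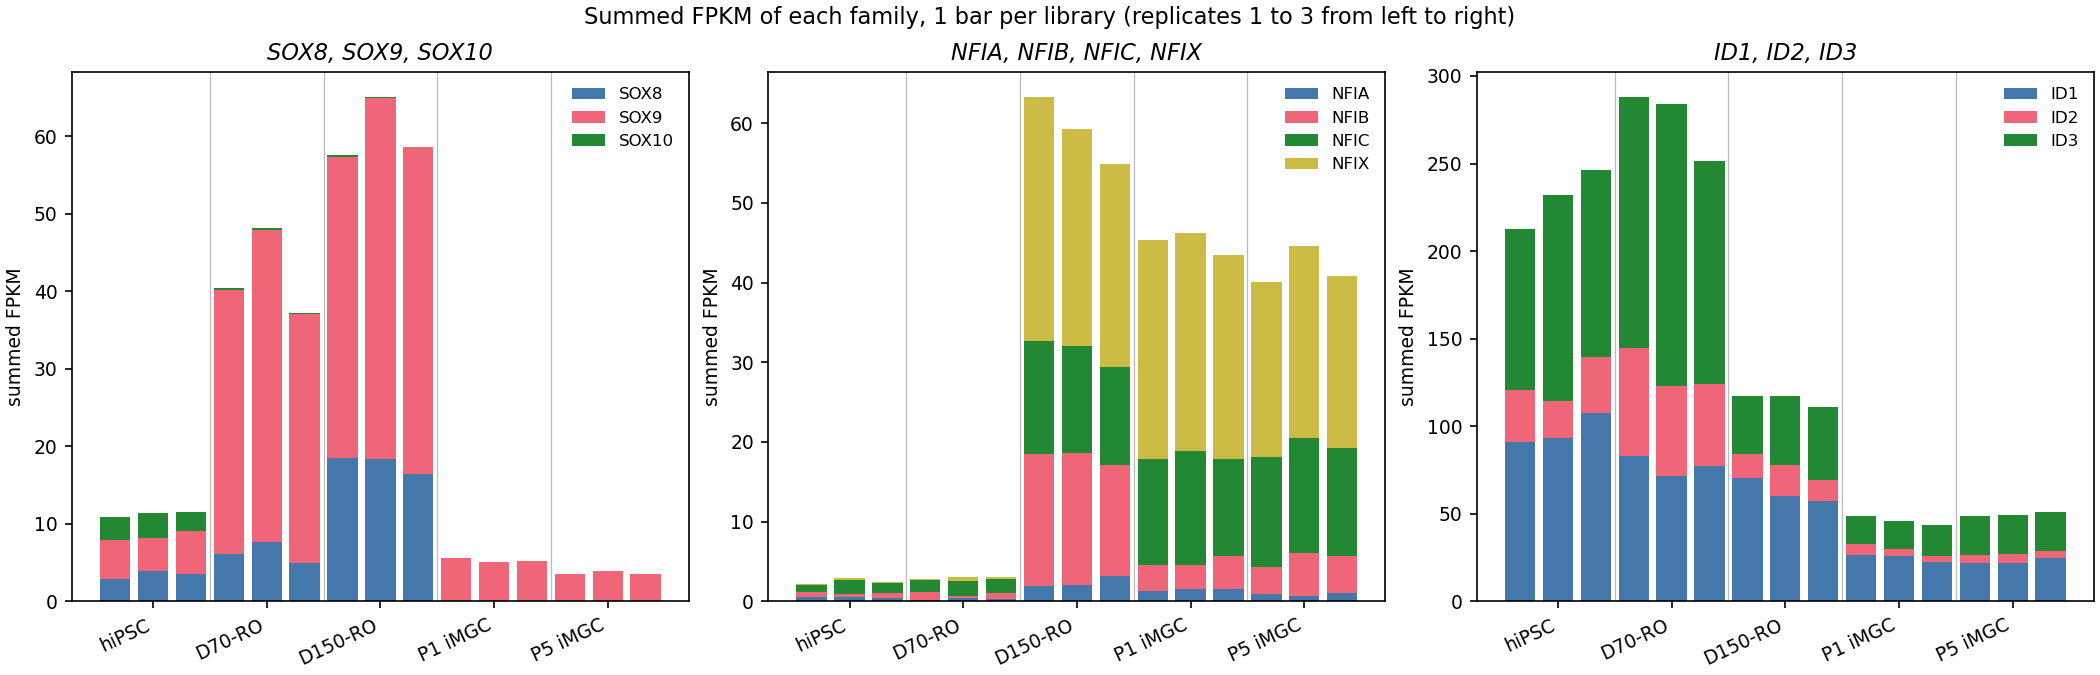
Stacked bars of FPKM for the SOXE (left), NFI (middle) and ID (right) genes, 1 bar per library and 3 libraries per group, with each gene in its own colour and each panel on its own linear axis from 0. SOX9 fills most of the organoid bars on the left, the NFI bars are near 0 until D150-RO and persist in both passages, and the ID bars are highest in hiPSC and D70-RO (230.0 and 274.0 FPKM on average) and lowest in the iMGCs.

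The NFI genes were low in hiPSCs and D70-ROs and rose to D150-RO. NFIX (chromosome 19, 12995608 to 13098796, plus strand) gave the widest range. It read 0.10, 0.27 and 0.15 FPKM in hiPSCs, 0.17, 0.57 and 0.34 FPKM in D70-ROs, then 30.55, 27.18 and 25.44 FPKM in D150-ROs. In iMGCs the levels were 27.56, 27.39 and 25.61 FPKM at P1 and 22.03, 24.15 and 21.57 FPKM at P5. The hiPSC and D70-RO libraries overlapped near 0, D150-RO and P1 overlapped near the top, and P5 lay just under them without overlap. Against D70-RO, D150-RO was higher by 6.46 on the log2 scale (SE 0.32, adjusted p = 5.64e-07), from 42 counts over the 3 D70 libraries. NFIX passed the filter there only through the D150-ROs, so it had to differ.

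NFIC (chromosome 19, 3314403 to 3469217, plus strand) had the profile most like that of NFIX. Its levels were 0.94, 1.81 and 1.26 FPKM in hiPSCs, 1.55, 1.77 and 1.74 FPKM in D70-ROs and 14.23, 13.41 and 12.34 FPKM in D150-ROs. P1 iMGCs held 13.30, 14.35 and 12.18 FPKM and P5 iMGCs 13.75, 14.36 and 13.62 FPKM. The 3 later groups overlapped one another, as did the 2 earlier ones. D150-RO exceeded D70-RO by 2.61 (SE 0.12, adjusted p = 4.45e-07). Over the 15 libraries the Pearson correlation of log2(FPKM + 1) between NFIC and NFIX was 0.995, and among 13915 genes each was the closest match of the other, with the cholesterol transporter ABCA1 next in both lists (0.988 for NFIC, 0.993 for NFIX). That correlation describes 5 group levels more than 15 independent points, since libraries of a group share their source.

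The promoters of the closest pair of members are shown because their RNA moved together, and those of ID2 and ID3 because both fell between D70 and D150, where the NFI genes rose. RefSeq promoter windows (build GRCh38.p14, 250 bases before to 50 after a transcription start) were found for 7 of the 10 genes and not for SOX8, SOX9 and SOX10. The tables do not tell which of a gene's starts was used in these cells. In the NFIC window (chr19:3359380-3359679, plus strand) and the NFIX window (chr19:12995225-12995524, plus strand) capitals mark the GC box bound by SP and KLF factors (GGGCGG, or CCGCCC on the other strand).
NFIC: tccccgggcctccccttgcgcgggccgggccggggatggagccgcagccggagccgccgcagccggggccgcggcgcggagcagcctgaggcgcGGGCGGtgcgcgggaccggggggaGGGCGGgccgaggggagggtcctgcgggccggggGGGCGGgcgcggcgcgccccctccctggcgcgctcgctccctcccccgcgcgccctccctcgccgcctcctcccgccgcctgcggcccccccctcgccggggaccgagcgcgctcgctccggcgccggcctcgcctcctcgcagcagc
NFIX: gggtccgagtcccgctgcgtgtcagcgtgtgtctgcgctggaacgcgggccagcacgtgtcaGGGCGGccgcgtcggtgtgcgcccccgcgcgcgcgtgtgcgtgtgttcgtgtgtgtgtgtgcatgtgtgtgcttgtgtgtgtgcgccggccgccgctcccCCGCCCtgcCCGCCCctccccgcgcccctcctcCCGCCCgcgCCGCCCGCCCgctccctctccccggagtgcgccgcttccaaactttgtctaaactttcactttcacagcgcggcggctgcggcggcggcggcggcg
The NFIC window held 3 GC boxes and the NFIX window 6, some of them overlapping, where the mean over 35116 RefSeq promoters was 1.08 and 45.0% held at least 1. Both windows are rich in G and C, at 86.3% and 74.0%. Neither held the core of the NFI site (TTGGC on either strand, in 45.6% of promoters), which NFIA and NFIB held once each, and none of the 7 windows held the full palindromic NFI site (TTGGC, any 5 bases, GCCAA), present in 0.0285% of promoters. In the ID2 window (chr2:8681806-8682105, plus strand) and the ID3 window (chr1:23559452-23559751, minus strand) capitals mark the NFI site core.
ID2: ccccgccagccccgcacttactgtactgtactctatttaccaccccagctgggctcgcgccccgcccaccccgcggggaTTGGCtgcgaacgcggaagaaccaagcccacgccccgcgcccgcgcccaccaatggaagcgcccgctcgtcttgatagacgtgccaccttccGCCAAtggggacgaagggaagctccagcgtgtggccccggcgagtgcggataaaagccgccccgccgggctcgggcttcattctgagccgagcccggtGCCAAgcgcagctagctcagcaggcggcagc
ID3: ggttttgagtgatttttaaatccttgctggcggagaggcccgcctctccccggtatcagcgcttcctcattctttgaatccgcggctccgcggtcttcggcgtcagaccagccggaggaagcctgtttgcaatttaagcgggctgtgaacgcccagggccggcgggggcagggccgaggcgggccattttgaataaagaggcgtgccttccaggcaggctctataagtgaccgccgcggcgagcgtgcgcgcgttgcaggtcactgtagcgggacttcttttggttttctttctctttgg
ID2 held 3 cores and ID3 none, where the mean over the RefSeq promoters was 0.651. All the ID2 cores but the last overlapped a CCAAT box (CCAAT, or ATTGG on the other strand). ID1, which was not called between D70 and D150, held 1 core, and it overlapped a CCAAT box too. A match is a string of letters in these windows and describes no binding.

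NFIB (chromosome 9, 14081843 to 14398983, minus strand) appeared at D150 and was only partly kept in culture. It read 0.60, 0.39 and 0.60 FPKM in hiPSCs, 0.91, 0.36 and 0.72 FPKM in D70-ROs and 16.58, 16.66 and 13.98 FPKM in D150-ROs. At P1 it held 3.28, 2.98 and 4.22 FPKM and at P5 3.36, 5.47 and 4.62 FPKM. D150-RO stood alone at the top, both passages overlapped each other in the middle, and the first 2 stages overlapped below. From D70-RO to D150-RO it rose by 5.19 (SE 0.13, adjusted p = 4.16e-08), and from D150-RO it fell by 1.48 to P1 (SE 0.08, adjusted p = 6.96e-11) and by 1.25 to P5 (SE 0.09, adjusted p = 7.56e-10). In the comparison with D70-RO it passed the filter only through the D150-ROs, so it had to differ.

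NFIA (chromosome 1, 60865259 to 61462793, plus strand) was the lowest of the 4 by FPKM in every group that expressed them. Its levels were 0.53, 0.50 and 0.38 FPKM in hiPSCs, 0.19, 0.35 and 0.27 FPKM in D70-ROs and 1.89, 2.00 and 3.12 FPKM in D150-ROs, followed by 1.24, 1.57 and 1.52 FPKM at P1 and 0.97, 0.64 and 1.01 FPKM at P5. The 5 groups did not overlap. NFIA rose from D70-RO to D150-RO by 3.58 (SE 0.23, adjusted p = 2.24e-06) and fell from D150-RO to P5 by 1.33 (SE 0.18, adjusted p = 3.33e-06), while the step from D150-RO to P1 was -0.50 (SE 0.13, adjusted p = 0.00252) and not called. In the comparisons with D70-RO and with P5 it passed the filter through the D150-ROs, where it was high. The ratio of depth-scaled counts to FPKM, which follows the transcript length RSEM assigned in each library, varied by up to 1.95 times between D150-RO libraries for NFIA and by up to 2.20 times between D70-RO libraries for NFIB. The FPKM of these 2 genes therefore moved with the assigned transcript length as well as with the counts that were tested.

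In hiPSCs the NFI genes summed to 2.51 ± 0.413 FPKM (SD, n = 3), with 2.98 ± 0.139 in D70-ROs, 59.1 ± 4.19 in D150-ROs, 45.1 ± 1.41 in P1 and 41.8 ± 2.43 in P5. Within it NFIX took 46.8% in D150-ROs, 59.6% in P1 and 54.0% in P5, and NFIB 26.6%, 7.79% and 10.7%. NFIC rather than NFIX was the main member before D150, at 52.3% in hiPSCs and 56.6% in D70-ROs.

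**Figure D2:**
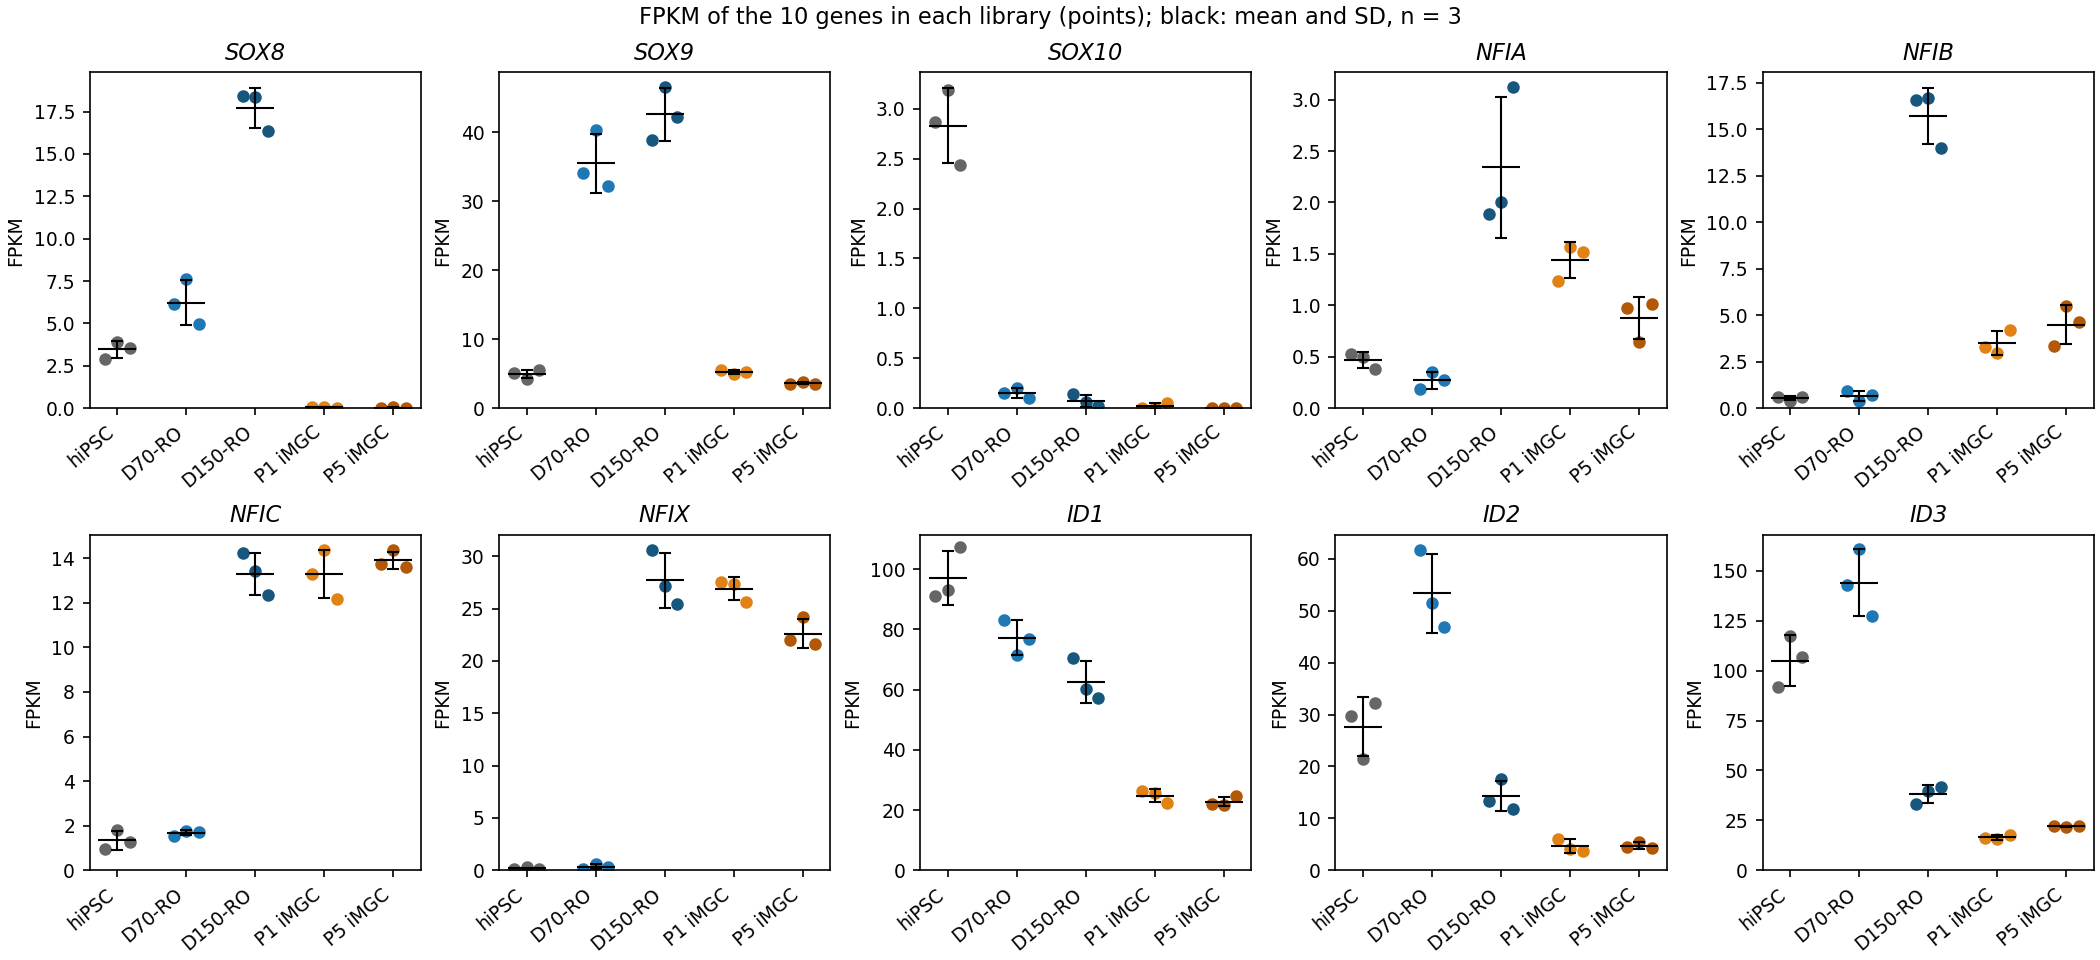
FPKM of each of the 10 genes (linear axes from 0, a scale per gene) in every library of the 5 groups, shown as points, with the mean as a black dash and the SD of 3 libraries as bars. The 4 NFI genes step up between D70-RO and D150-RO, SOX8 peaks in D150-RO at a mean of 17.7 FPKM, SOX10 is confined to the hiPSC libraries above 0.20 FPKM, and ID2 and ID3 peak in D70-RO.

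The ID genes had the highest summed FPKM of the 3 families in hiPSCs, D70-ROs and D150-ROs, and ID2 and ID3 fell between D70 and D150, where the NFI genes rose. ID1 (chromosome 20, 31605283 to 31606515, plus strand) was highest in hiPSCs at 90.99, 92.97 and 107.26 FPKM, with 83.15, 71.53 and 76.96 FPKM in D70-ROs and 70.61, 60.15 and 57.37 FPKM in D150-ROs. The iMGCs held 26.41, 25.68 and 22.21 FPKM at P1 and 22.07, 21.80 and 24.63 FPKM at P5. Each group lay under the one before it without overlap except the 2 passages, which overlapped. None of the steps was called: the log2 fold change was -0.46 (SE 0.11) from hiPSC to D70-RO, -0.49 (SE 0.1) from D70-RO to D150-RO and -0.74 (SE 0.09) from D150-RO to P1, with adjusted p-values of 0.00302, 0.00228 and 7.77e-07, all short of 2-fold.

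ID2 (chromosome 2, 8678845 to 8684453, plus strand) peaked in D70-ROs. It read 29.67, 21.39 and 32.18 FPKM in hiPSCs, 61.77, 51.40 and 46.90 FPKM in D70-ROs and 13.33, 17.56 and 11.88 FPKM in D150-ROs, then 6.12, 4.12 and 3.68 FPKM at P1 and 4.48, 5.46 and 4.27 FPKM at P5. Only the 2 passages overlapped. ID2 fell by 1.96 from D70-RO to D150-RO (SE 0.15, adjusted p = 5.73e-06) and by 1.09 from D150-RO to P1 (SE 0.15, adjusted p = 6.65e-06). The latter call was lost without D150-RO replicate 2 (-0.98) or P1 iMGC replicate 3 (-0.99). From hiPSC to D70-RO the log2 fold change was 0.78 (SE 0.15, adjusted p = 5.27e-04) and not called.

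ID3 (chromosome 1, 23557918 to 23559794, minus strand) peaked at the same stage. Its levels were 91.75, 117.45 and 106.67 FPKM in hiPSCs, 142.83, 160.93 and 127.62 FPKM in D70-ROs and 33.22, 39.79 and 41.67 FPKM in D150-ROs. P1 iMGCs held 15.94, 15.81 and 17.85 FPKM and P5 iMGCs 22.41, 21.80 and 22.06 FPKM. None of the groups overlapped, and P5 lay above P1. From D70-RO to D150-RO it fell by 2.14 (SE 0.13, adjusted p = 1.66e-06). In hiPSCs the 3 ID genes summed to 230.0 ± 16.9 FPKM (SD, n = 3), with 274.0 ± 19.9 in D70-ROs, 115.0 ± 3.70 in D150-ROs, 45.9 ± 2.38 in P1 and 49.7 ± 1.13 in P5. ID3 was the main member in D70-ROs (52.4%), and ID1 in D150-ROs (54.4%).

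Read by comparison, the step from hiPSC to D70-RO called 1 member higher (SOX9) and 1 lower (SOX10) of the 7 tested, where 22.5% of 12954 genes were called higher and 21.1% lower. SOX10 had passed the filter only through the hiPSCs, so it had to differ and the lower count is not read against the background. NFIA, NFIB and NFIX were too low to test, and without the filter their log2 fold changes were -0.81, -0.37 and 1.00, none of them called. The step from D70-RO to D150-RO called 5 members higher (SOX8 and the 4 NFI genes) and 2 lower (ID2 and ID3) of 9 tested, against a background of 16.6% higher and 16.7% lower among 12855 genes. NFIA, NFIB and NFIX had passed the filter only through the D150-ROs, so they had to differ and the higher count is not read against the background. From hiPSC to D150-RO, which shares its groups with the other stage comparisons, 6 of 10 members were called higher and 3 lower, with 29.8% and 29.0% of 13344 genes called. There NFIA, NFIB and NFIX had passed the filter only through the D150-ROs and SOX10 only through the hiPSCs, so these 4 had to differ and the count is not read against the background.

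Between D70 and D150 the change of a gene also followed its length. Among the genes tested, the median log2 fold change was -0.67 in the shortest quartile, by depth-scaled counts per FPKM, against 0.55 in the longest. ID1, ID2 and ID3 belong to the shortest quartile, NFIA, NFIC and NFIX to the third with a median of 0.17, and NFIB to the longest. The fold changes of ID2 and ID3 (-1.96 and -2.14) and of the NFI genes (2.61 to 6.46) were each larger in size than the median of their quartile, whereas that of ID1 (-0.49) was not. The part of length in these results was not tested further.

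**Figure D3:**
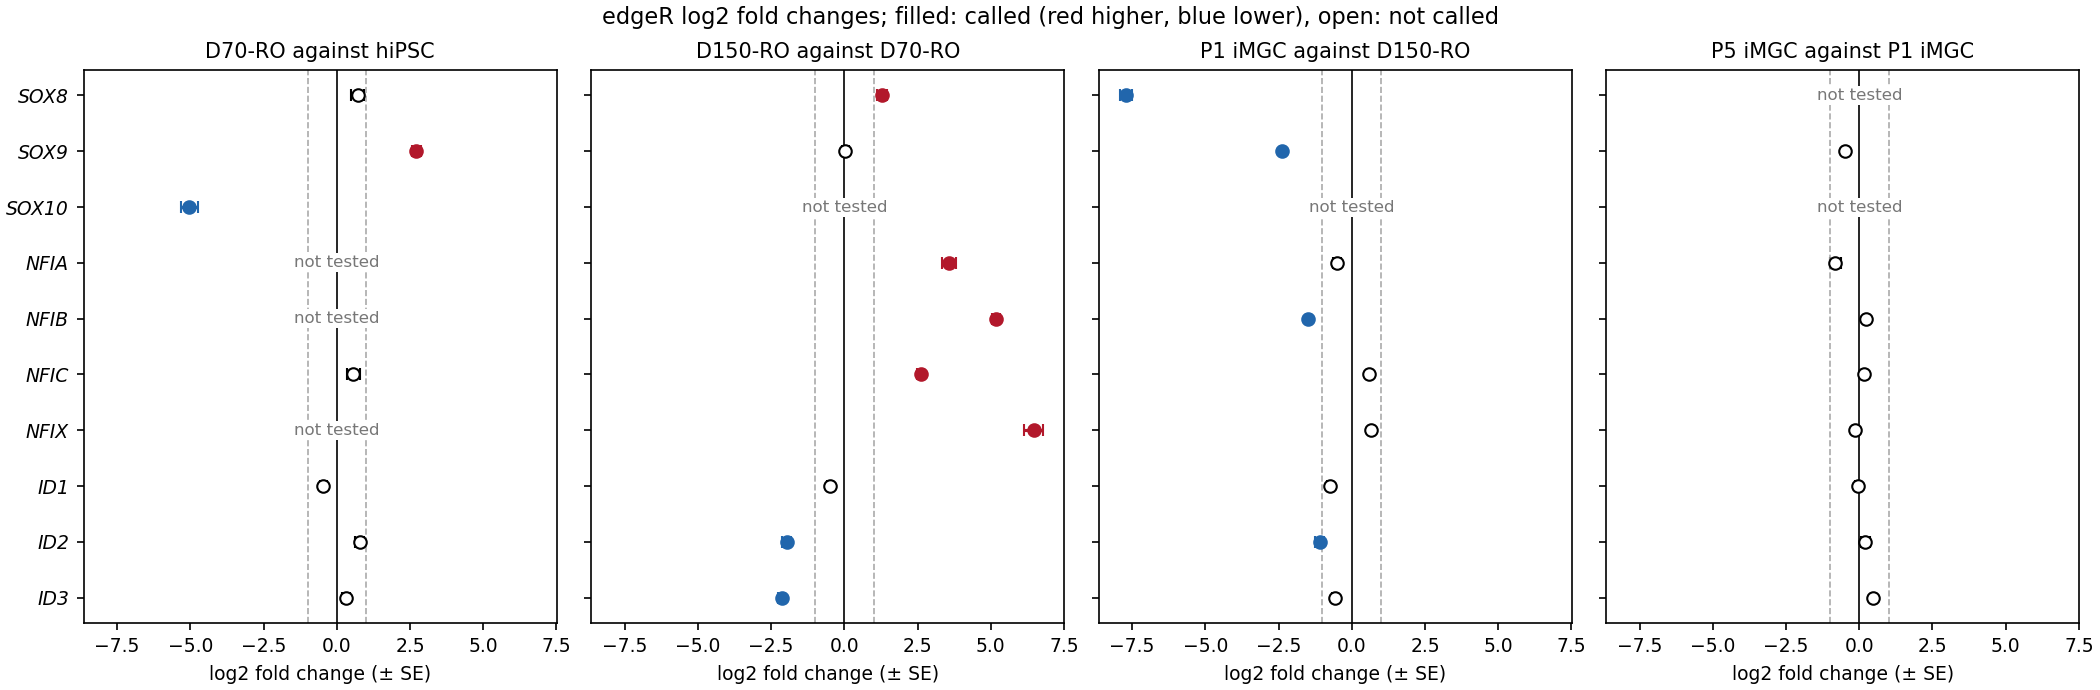
Log2 fold changes (x axis) of the 10 genes (rows) in 4 comparisons, each point an edgeR estimate with its SE from 3 libraries against 3, with dashed lines at a 2-fold change. Filled red and blue points are calls higher and lower, open points are tested but not called. The 4 NFI genes stand to the right and ID2 and ID3 to the left from D70-RO to D150-RO, SOX8 lies farthest left from D150-RO to P1 iMGC, and no point is filled between the passages.

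Entry into culture was compared as P1 against D150-RO and P5 against D150-RO, which share the D150-RO libraries. The values come from separate deposited tables, whose FPKM were each scaled within a library. At P1, 4 of the 9 members tested were called lower (SOX8, SOX9, NFIB and ID2) and 0 higher by edgeR and by DESeq2, with 20.0% of 12896 genes called higher and 24.1% lower. At P5, 4 of 9 were called lower (SOX8, SOX9, NFIA and NFIB) and 0 higher by either tool, with 20.8% of 12933 genes higher and 23.9% lower. SOX8 passed the filter in both comparisons only through the D150-ROs, where it was high. NFIA at P5 also passed through them, since its highest P5 value was 1.01 FPKM. The counts of lower calls are therefore not read against the background. At an unadjusted p under 0.05, 2 members were higher in each comparison, NFIC and NFIX, and 7 were lower in P1 and 6 in P5. The share of all genes past that threshold was not computed, so these counts are not read as a result about the members.

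The size of the iMGC differences depended on the scaling. In P1 and P5 the 10 most abundant genes took 14.6% to 16.5% of the counts, against 4.71% to 5.09% in D150-ROs, and with scaling by library totals alone, as in FPKM, the median log2 fold change of all genes shifted by -0.64 for P1 and by -0.70 for P5. Of all genes called, 45.4% were higher in P1 with TMM and 22.6% with library totals, and 46.5% and 22.0% in P5. NFIC and NFIX were at 0.60 and 0.66 in P1 with TMM, and at -0.04 and 0.01 with library totals, so NFIC turned direction. In P5 they were at 0.75 and 0.49 with TMM, and at 0.05 and -0.21 with library totals, so NFIX did. Relative to the typical gene both were thus slightly higher in the passaged cells, and as a share of the library they were level with D150-RO or a little lower. SOX8, SOX9 and NFIB were called lower under every scaling tried in both comparisons. With library totals alone 7 members were called lower in P1, NFIA (-1.14), ID1 (-1.39) and ID3 (-1.21) joining the 4. That scaling called 6680 of all 12896 genes, only 1507 of them higher, against 5686 called and 2581 higher with TMM. The count of 7 is therefore not read as a result about the members.

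**Figure D4:**
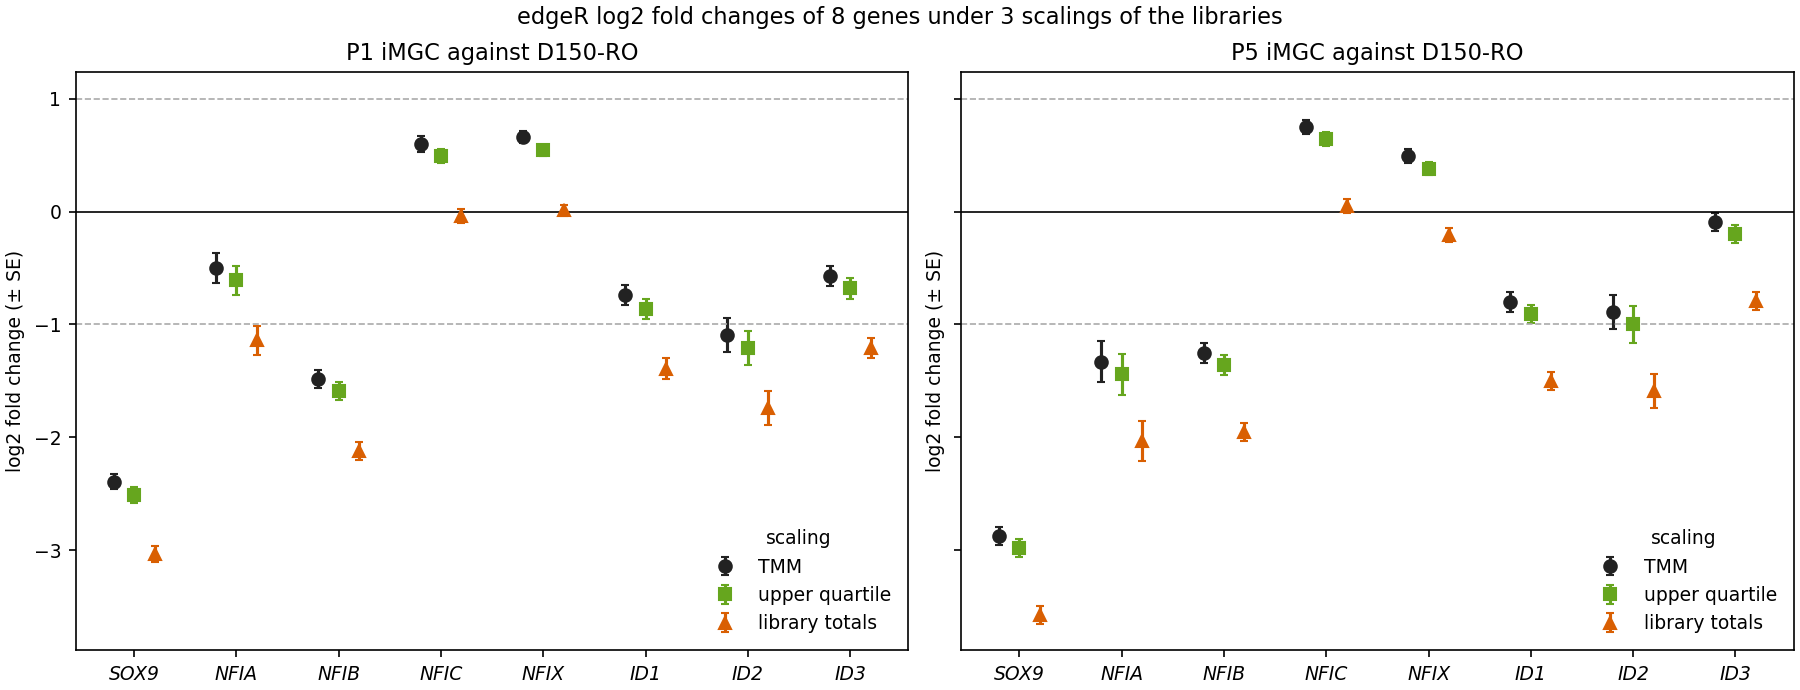
Log2 fold changes with SE (y axis) of 8 genes in P1 (left) and P5 iMGCs (right) against D150-RO, under 3 scalings of the libraries marked by shape, with dashed lines at a 2-fold change. Library totals place every gene lower than TMM does, which moves NFIC and NFIX from above 0 to about 0 and ID1 beyond the 2-fold line, while SOX9 and NFIB stay under -1 throughout.

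Between P1 and P5, 0 of the 8 members tested were called by edgeR or DESeq2, where 1.94% of 11366 genes were called higher and 0.977% lower. A count of 0 is near what these shares give for 8 genes. At an unadjusted p under 0.05, 6 of the 8 differed, each by less than 2-fold, and the same 6 had an adjusted p under 0.05. The shares above also need a 2-fold change, and none was computed without it. The count of 6 is therefore not read as a result about the members. ID3 was higher at P5 by 0.48 on the log2 scale (SE 0.08, adjusted p = 2.24e-05) and NFIB by 0.23 (SE 0.08, adjusted p = 0.0392). SOX9 stood at -0.47 (SE 0.09, adjusted p = 1.79e-04) and NFIA at -0.82 (SE 0.19, adjusted p = 0.00144). Without P5 iMGC replicate 3, NFIA reached the 2-fold limit (-1.0) and was the only member called. SOX8 and SOX10 were too low to test.

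Genes related to the members by family or pathway were read from fixed lists, by counts. Of all genes tested, 22.5% were called higher and 21.1% lower from hiPSC to D70-RO, and 16.6% and 16.7% from D70-RO to D150-RO. Against D150-RO the shares were 20.0% and 24.1% in P1, and 20.8% and 23.9% in P5. Listed genes under 1 FPKM in 1 group of a comparison passed the filter only through the other, so the list counts are not read against these shares. Of 8 other SOX and ID genes, 4 of 6 tested rose and 1 fell from hiPSC to D70-RO, led by SOX5 (4.13) and ID4 (3.49). ID4, the remaining ID gene, went from 2.23, 2.34 and 2.82 FPKM in hiPSCs to 28.12 to 31.97 FPKM in D70-ROs and 1.01 to 1.57 FPKM in iMGCs, so it shared the iMGC low point with ID1 to ID3 without their hiPSC level. In P1 against D150-RO all 7 of this list that were tested were lower (list median -3.61 against -0.05 over all genes), and SOX2, the SOXB1 factor of progenitors and Müller glia, fell by 6.33, from 65.38 to 76.97 FPKM to 0.41 to 0.68 FPKM.

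Of 18 genes of BMP and SMAD signalling, the pathway upstream of ID transcription, 14 were tested between D70 and D150, with 3 higher and 2 lower (list median -0.11 against -0.01). The ligand BMP4 fell by 3.10 there, from 4.40, 5.96 and 6.29 FPKM to 0.82, 0.50 and 0.82 FPKM, and the pseudoreceptor BAMBI by 2.13, while the ligand BMP7 rose by 1.77. In P1 against D150-RO 4 were higher and 4 lower of 15 tested (median 0.21 against -0.05). BMP7 went from 12.83 to 19.69 FPKM to a listed 0 in all P1 libraries, and the BMP antagonist GREM1 from 0.61 to 1.03 FPKM to 672.61 to 696.79 FPKM, and NOG, another antagonist, held 2.27 to 2.47 FPKM at P1. The inhibitory SMAD7 rose by 1.96. At P5 2 were higher and 4 lower of 14 tested.

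The bHLH list, 10 tissue-specific factors and the 3 E proteins that ID proteins bind, had 10 of 12 tested genes higher and 1 lower from hiPSC to D70-RO (list median 6.38 against 0.02), with BHLHE22 (8.06) and NEUROG2 (8.05) in front. From D70-RO to D150-RO 4 were higher and 3 lower of 12. ATOH7, the factor of ganglion cell genesis, fell by 4.70, and NEUROG1 (2.19) and NEUROD4 (2.00) rose. In P1 against D150-RO 8 of 10 were lower and 0 higher, of which 6 had no count at P1 (list median -7.45 with those set at 3 counts). Among E proteins TCF4 rose by 1.71 to D150-RO and fell by 2.12 to P1.

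Of 9 other regulators of Müller glia formation, 2 were higher and 4 lower between D70 and D150 (list median -0.23), ZBTB20 (3.31) and HEY2 (2.58) against the Notch effectors HES1 (-2.02) and HES5 (-1.10) and the progenitor factors RAX (-1.41) and LHX2 (-1.28). In P1 against D150-RO 8 of 9 were lower, of which RAX and HES5 had no count at P1 and passed the filter only through the D150-ROs. Among 13 glial genes, 3 of 10 tested were higher between D70 and D150 (RLBP1 by 4.66, SLC1A3 by 1.41 and GFAP by 1.37) and 2 lower. GFAP was low even in D150-ROs, at 1.73 to 1.85 FPKM. Of this list 8 of 10 were lower in P1 and 1, APOE, higher (2.11). Cartilage genes of the SOX9 programme gave 2 higher and 5 lower of 7 tested in P1. COL2A1 went from 21.34 to 23.30 FPKM to at most 0.03 FPKM and HAPLN1 from a listed 0 in every D150-RO library to 3.52 to 4.57 FPKM. Proliferation genes were lower in 5 of 6 cases between D70 and D150 (list median -1.83), and 1 of 6, CCNB1 (1.46), was higher in P1.

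Genes outside the lists with profiles closest to a member were named by Pearson correlation of log2(FPKM + 1) over the 15 libraries, which share 5 sources and so overstate likeness. For SOX9 they were P4HTM (0.993), RXRG (0.992) and ADGRB3 (0.992), and for SOX8 ATP1B2 (0.997), PLEKHA7 (0.995) and NR1D1 (0.995). SOX10 was closest to LTBR (0.998), KCNK5 (0.998) and ADRA2B (0.997). NFIB was nearest to DICER1 (0.985), FAM241A (0.982) and GOLGA8A (0.981), and NFIA, whose best match was the weakest of the 10, to SVEP1 (0.942), SLC24A1 (0.939) and C6orf62 (0.937). The third match was ITGA4 (0.984) for NFIC and TBC1D8B (0.988) for NFIX. ID1 paired with FGF13, RIPOR2 and MAP2K6 (0.992 each), ID2 with RCN2 (0.990), ACTL6A (0.984) and CPNE2 (0.982), and ID3 with NOSIP (0.990) and NT5M (0.989). No ID gene was among the 3 nearest of another.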

How the data were processed

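Poly(A) RNA-seq was made from 15 libraries (5 groups, n = 3, grouped by their labels). Per the labels and methods, HISAT2 did the mapping, StringTie the assembly and RSEM the quantification. The authors deposited expected counts per gene, whose totals differ between libraries and of which 8.21% to 10.05% per library were not whole, and FPKM, scaled per library to transcript length and mapped reads. Whether their correction between batches was applied to these values is not given in the sources used here. Versions, genome build and annotation are not given there either. A table with 6 iMGC columns that name no passage was not used. Symbols and positions came from GENCODE 29 (GRCh38), which matched all 19684 identifiers, and promoters from RefSeq.

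Expected counts were rounded and tested with edgeR 4.0.16 (R 4.3.3, limma 3.58.1), 3 libraries against 3, with TMM and quasi-likelihood, for genes with at least 1 FPKM in 3 or more of 6 libraries. Calls needed an adjusted p under 0.05 and a 2-fold change, and the test was checked on simulated data. Alternatives were no filter, upper-quartile scaling, library totals alone, DESeq2 1.42.0 (the tool the authors used), a replicate block and leaving out each replicate. The 10 members and the gene lists were chosen with earlier results of these data known. All members are named. From each list the text names up to 2 genes with the largest rise and 2 with the largest fall, plus defining genes, and for each member the 3 most alike of 13915 genes, of which 1 is not reported here. Other genes named in the lists were chosen after their values were seen.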

Additional observations from a re-analysis of the deposited data

How the results depend on the processing

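Of 572 alternative values for single members and comparisons, 554 kept their direction and their side of the threshold. The exceptions that turned direction were SOX9 from D70-RO to D150-RO (0.04), at -0.07 with upper-quartile scaling and between -0.05 and 0.16 when a replicate was left out, NFIC in P1 against D150-RO, at -0.04 with library totals, and NFIX in P5 against D150-RO, at -0.21 with library totals. The shift of the median of all genes under library totals was 0.14, 0.36 and 0.22 for D70-RO against hiPSC, D150-RO against hiPSC and D150-RO against D70-RO. With them ID2 from hiPSC to D150-RO was at -0.82 and no longer called, 7 members in place of 4 were called lower in P1 against D150-RO, and in P5 ID1 (-1.50) and ID2 (-1.59) were called as well. Calls over all genes also rose under library totals, from 5686 to 6680 in P1 and from 5774 to 7008 in P5. Leaving out a replicate gave 0 to 1 members called lower between P5 and P1, 3 to 4 in P1 and 4 to 5 in P5 against D150-RO, and 3 to 4 in D150-RO against hiPSC. In the last, ID1 was called without hiPSC replicate 1 or D150-RO replicate 1 (-1.0 and -1.04), and in P5 ID2 was called without D150-RO replicate 3 (-1.02).

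Same-numbered libraries deviated together in 2 of 18 pairs (correlations -0.0795 to 0.35). D70-RO replicate 1 and hiPSC replicate 3, of unlike numbers, reached 0.331. No pairing by number was thus evident, but this check cannot exclude one. A replicate block left the members called at 1 higher and 1 lower in D70-RO against hiPSC, 6 and 3 in D150-RO against hiPSC, 5 and 2 in D150-RO against D70-RO, 0 and 4 in each iMGC comparison with D150-RO, and 0 and 0 between passages.

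Without the filter 694 genes were called between P5 and P1 in place of 332, and SOX10, from 10 counts in D150-ROs and 0 in P5, was called lower. Depth limits SOX10 outside the hiPSCs, SOX8 in the iMGCs and NFIX before D150.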
